A study of Mus musculus with 8 samples.

Results

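The insulin-like growth factor (IGF) axis of the kidney was examined in the RNA of whole mouse kidneys by 10 genes: the pappalysin proteases *Pappa2* and *Pappa*, the stanniocalcins *Stc1* and *Stc2*, the ligand *Igf1*, the receptor *Igf1r*, and the binding proteins *Igfbp1*, *Igfbp3*, *Igfbp4* and *Igfbp5*. They were found by gene ID among 55401 listed genes. The list was chosen by the measured genotype difference of *Pappa2*, so that difference is given as a description with no test, and the other 9 genes are given with one. The axis works extracellularly. IGF binding proteins hold IGF ligands away from the receptor, pappalysins cut certain binding proteins and so free the ligand, and stanniocalcins bind pappalysins and block them. PAPP-A cuts IGFBP-4 and IGFBP-5, PAPP-A2 cuts IGFBP-3 and IGFBP-5, and in the kidney *Pappa2* is known from the thick ascending limb and macula densa.

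The series held 8 kidneys, 4 labelled Ctrl and 4 labelled KO. Per the labels, both groups carried floxed alleles of *Sik1*, *Sik2* and *Sik3*, which encode the salt-inducible kinases (SIKs), and the KO mice carried Six2-Cre in addition. The study's text states that mice homozygous for all 3 floxed genes with Six2-Cre did not survive and describes mutants with 1 floxed and 1 intact *Sik1* allele, so labels and text differ on *Sik1*. Six2-Cre acts in nephron progenitors and their descendants. Kidney cells outside that lineage, stromal, endothelial and blood cells among them, keep their SIKs. The controls lacked Cre. The study's methods name both sexes and Cre-negative littermates, and the labels give no age, sex or litter per kidney.

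Totals were 10179643 to 10925093 expected counts per kidney, and values are given as CPM, counts scaled to a common depth by TMM factors, unless stated. *Sik3* was lower in KO (39.5 ± 4.10 CPM, SD, n = 4) than in Ctrl (62.9 ± 3.79) with no overlap, *Sik2* was 6.72 ± 2.07 against 9.14 ± 0.841, and *Sik1* was 50.6 ± 4.85 against 40.8 ± 2.84, with no overlap and higher in KO. These are values over the whole gene and do not measure the loss of a floxed exon. Ctrl3 and Ctrl4 stood apart: they held 0 and 2 counts of 4 Y-linked genes, while the other 6 kidneys held 789 to 1064. The log2 fold changes of the 10 genes and of the other pathway genes named are therefore also given for the 6 kidneys with Y-linked reads (2 Ctrl, 4 KO). Of 14326 genes tested by edgeR's quasi-likelihood test, 0 had a false discovery rate (FDR) under 0.05, 911 had an unadjusted p under 0.05, and DESeq2 called 71 (0.386% of the genes it gave an adjusted p).

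Sequence just upstream of 2 members is shown because one of them was set apart by genotype and the other held the sole match to a hormone-related motif. RefSeq promoter windows of 300 bases (GRCm38.p6, the assembly of mm10) were at hand for 8 of 10 members. 3 motifs were searched on both strands: the cAMP response element TGACGTCA, which CREB binds, its half-site TGACG, which lies within it, and CAAAACA, the core of the insulin response element. TGACGTCA was in 1.79% of all 32851 windows, TGACG in 20.8% and CAAAACA in 6.28%. Neither TGACGTCA nor TGACG was in any of the 8 member windows, and CAAAACA was in 1, that of *Igfbp1*, whose protein is known as an insulin-repressed binding protein. The stretches below lie upstream of the start of each gene's longest transcript, 5′ to 3′ on the gene's strand. They are 58 of the window's 300 bases for *Pappa2* and 245 for *Igfbp1*. The rest of each window lies past the start of the gene's longest transcript. For *Pappa2* the stretch is chr1:158958368-158958425 (minus strand), which ends at the first exon of the full-length coding transcript. It lies within the span of 2 noncoding transcripts that start further upstream, and was not compared with their exons. For *Igfbp1* it is chr11:7197537-7197781 (plus strand), which ends at the annotated start, and the capitals mark the CAAAACA match, whose first base is 103 bases before that start.
Pappa2: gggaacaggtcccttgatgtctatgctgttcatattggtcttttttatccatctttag
Igfbp1: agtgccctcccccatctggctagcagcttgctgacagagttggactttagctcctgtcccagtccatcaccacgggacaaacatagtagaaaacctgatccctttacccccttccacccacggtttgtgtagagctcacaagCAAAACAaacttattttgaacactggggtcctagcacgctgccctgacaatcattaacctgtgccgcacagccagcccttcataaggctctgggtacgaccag
A match is a description of these letters and not a bound site, and a window without one holds no more than that.

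*Pappa2* was the lowest of the 10 genes and the sole one whose groups did not overlap. The gene lies at chr1:158711727-158980490 (minus strand), and its full-length coding transcript has 22 exons and 9518 bases. The control kidneys held 3, 3, 5 and 5 reads and the KO kidneys 29, 20, 23 and 23. Every KO kidney held at least 4 times the reads of any control, and 2 of the controls stood exactly at the floor of 3 counts. In CPM the controls were at 0.304, 0.296, 0.440 and 0.438, and the KO kidneys at 2.56, 1.78, 2.23 and 2.21. The means were 0.370 ± 0.0801 and 2.20 ± 0.318 (SD, n = 4 each), a log2 difference of 2.52 (SE 0.28) in the fit over all genes. Summed over kidneys and scaled for depth, 95 reads against 16 gave a ratio of 5.87, with an exact 95% interval of 3.43 to 10.7 that covers counting error only. Among all genes tested, 4.03% had groups that did not overlap, and 1.65% did so with KO higher; since this difference chose the list, nothing is read from it. Without Ctrl3 and Ctrl4 the log2 difference was 2.83 (SE 0.43).

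**Figure D1:**
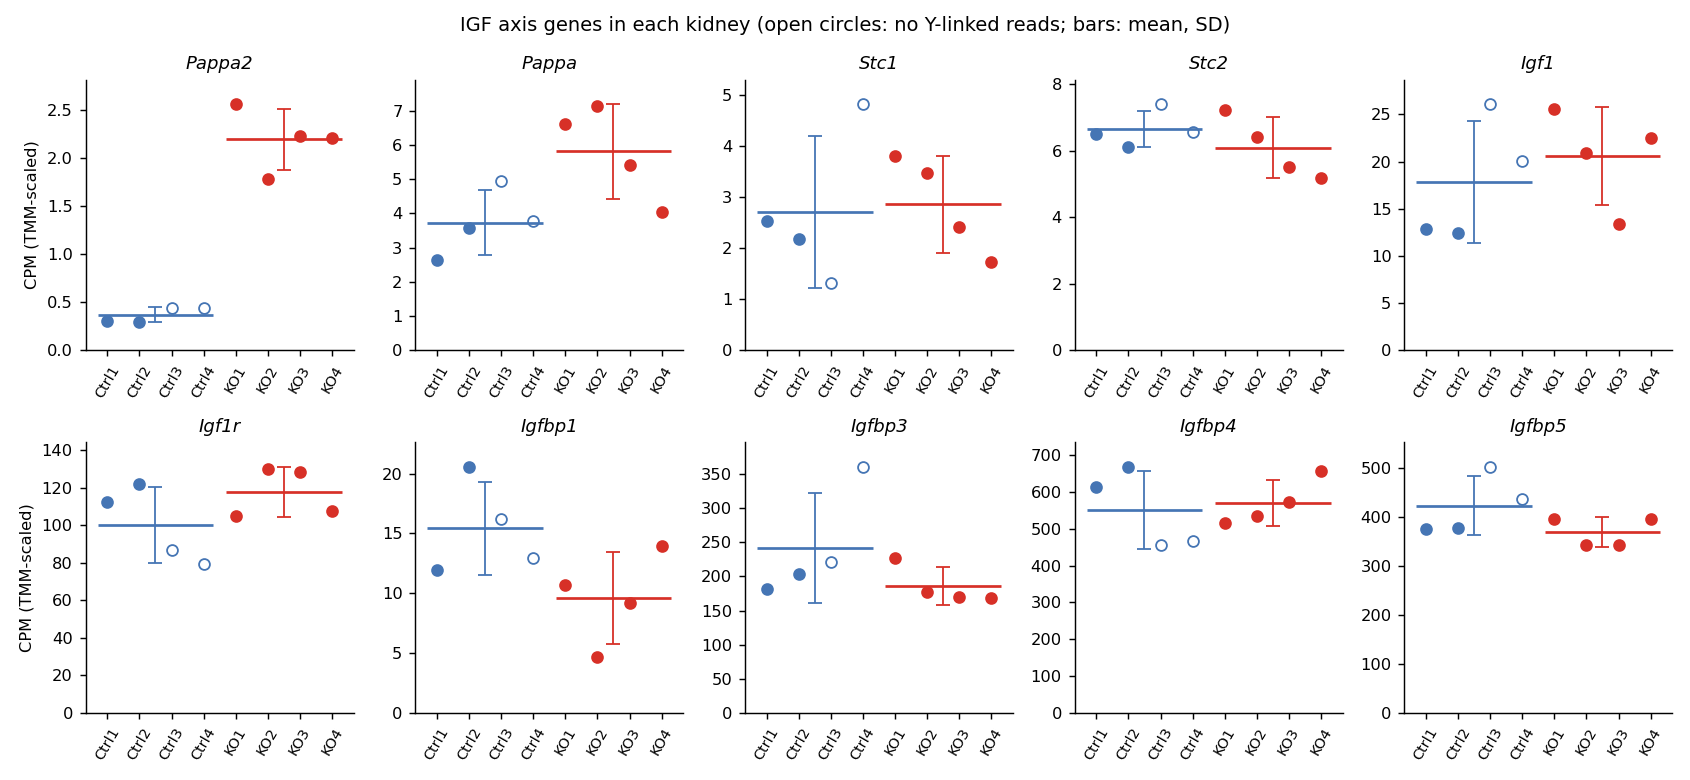
Level of each of the 10 genes in every kidney, in TMM-scaled CPM on axes that start at 0 (Ctrl blue, KO red; open circles are Ctrl3 and Ctrl4, which lack Y-linked reads; lines are group means and bars the SD, n = 4). *Pappa2* alone separates the groups, at 0.296 to 0.440 in Ctrl and 1.78 to 2.56 in KO.

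The size of the *Pappa2* difference depended on the unit. In TPM, the deposited unit that scales reads by transcript length as well as by depth, the controls were at 0.03, 0.03, 0.05 and 0.05 and the KO kidneys at 0.31, 0.32, 0.30 and 0.43, a ratio of means of 8.50 where CPM gave 5.94. RSEM, the program behind these values, gives each gene a length averaged over its transcripts by their estimated share. All 4 controls and KO1 had 9518 bases, the full-length transcript alone. KO2, KO3 and KO4 had 6595, 8519 and 5343 bases, so part of their estimate went to the 5 shorter annotated transcripts of 439 to 872 bases. For KO4 this put 51.7% to 54.0% of *Pappa2* molecules on the full-length transcript, yet the reads behind the remainder came to 0.456 to 1.42 of 23. In KO2 they came to 0.234 to 0.704 of 20 reads, and in KO3 to 0.0715 to 0.213 of 23. At most 1.42 reads in a kidney thus moved its TPM value, while CPM does not use the length. The lincRNA 1600012P17Rik overlaps *Pappa2* on the same strand, and no *Pappa2* count was uncertain in RSEM's posterior (SD 0).

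**Figure D2:**
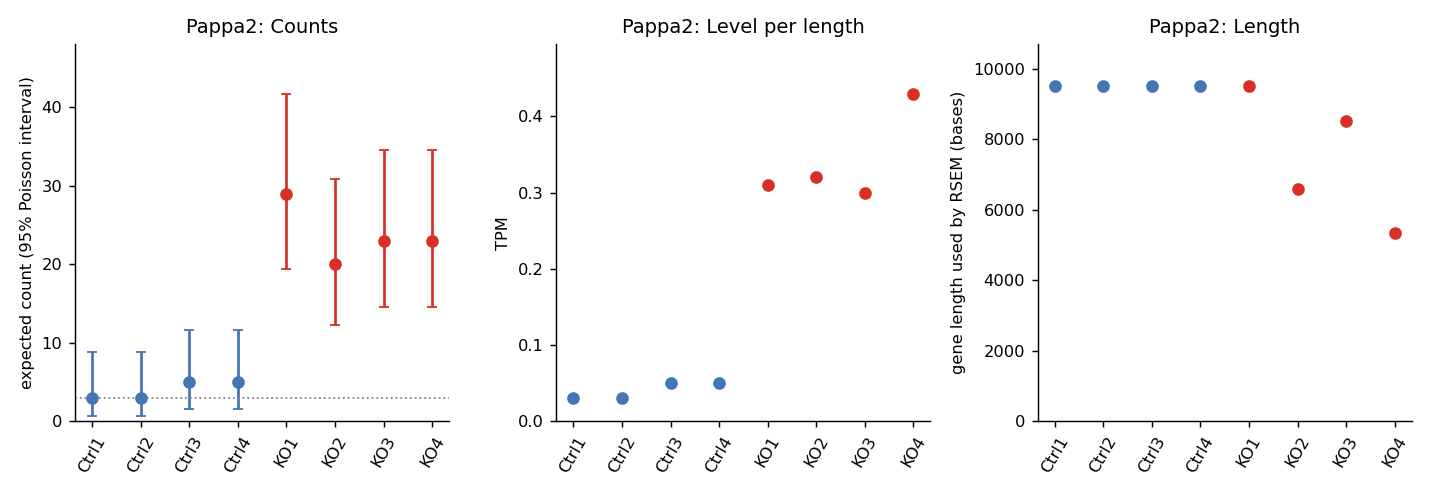
*Pappa2* in each kidney (Ctrl blue, KO red): reads with exact 95% Poisson intervals and the floor of 3 counts as a dotted line (left), TPM as deposited (middle), and the gene length in bases that RSEM used (right). KO4 has the highest TPM (0.43) with 23 reads and the shortest length (5343 bases), while KO1 has the most reads (29) at the full 9518 bases.

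Markers of the segments known for *Pappa2* overlapped between the groups. The list of *Slc12a1*, *Umod*, *Cldn16*, *Nos1* and *Ptgs2* summed to 2801 to 3683 CPM in Ctrl and 2854 to 4219 in KO, and the 3 of 5 genes tested had a median log2 fold change of 0.11. Of these 3, 1 had an edgeR unadjusted p under 0.05, beside 6.36% of all genes tested. It was *Cldn16*, a claudin of the thick ascending limb, at 0.60 (SE 0.26, edgeR unadjusted p = 0.0475, FDR = 0.777). *Nos1* and *Ptgs2*, which define the macula densa, were too low to be tested, at 0 to 1.14 CPM. In whole-kidney RNA, fewer cells of a type and less RNA per cell cannot be told apart, here or below.

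The genes whose levels followed *Pappa2* most closely were found by Pearson's r of log2(CPM + 1) over the 8 kidneys, a description with no p because a large genotype step in any gene raises it. They were *Rrbp1* (a ribosome-binding protein of the endoplasmic reticulum; r = 0.97), the pseudogene *Glns-ps1* (0.96), *AC134576.3* (0.94), *C130050O18Rik* (0.94) and *Rnase4* (a secreted ribonuclease; 0.93). *Rrbp1* lay between 103 and 110 CPM in Ctrl and between 121 and 133 in KO. *Glns-ps1* ran from 0.0875 to 0.352 CPM in Ctrl and from 1.34 to 2.13 in KO. Of the other 9 genes of the axis, *Pappa* came nearest (r = 0.72, rank 311) and *Igfbp1* was furthest on the negative side (r = -0.56).

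None of the other 9 genes passed the test for genotype: their FDR ran from 0.730 to 0.987, against 0% of all genes called. At an unadjusted p under 0.05 there were 2 of 9, *Pappa* higher and *Igfbp1* lower, beside 6.36% of all genes tested. That count fell to 0 without KO1 or without KO2, and to 1 without Ctrl2, Ctrl3 or KO3. DESeq2 called 0 of the 9. Two-sided exact permutation p-values of the mean CPM over the 70 assignments of 4 against 4, the smallest possible being 0.0286, ran from 0.0571 (*Pappa*) to 0.886 (*Stc1*). The median log2 fold change of the 9 was 0.05, beside -0.0038 over all genes.

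*Pappa*, the paralog of *Pappa2* (chr4:65124174-65357509), held 26 to 80 reads per kidney. Ctrl kidneys were at 2.64, 3.56, 4.93 and 3.76 CPM, and KO kidneys at 6.62, 7.13, 5.42 and 4.04. KO1, KO2 and KO3 lay above every control, and KO4 lay below Ctrl3, so the groups overlapped. The log2 fold change was 0.64 (SE 0.24; edgeR unadjusted p = 0.0265, FDR = 0.730). Without Ctrl3 and Ctrl4 it was 0.91 (SE 0.29; edgeR FDR = 0.339, unadjusted p = 0.0133), and the 2 remaining controls lay below all KO kidneys, which 10.3% of all genes did in that comparison. *Pappa* has 1 annotated transcript, so its length did not vary between kidneys.

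The stanniocalcins, which inhibit both proteases, showed no difference beyond the spread between kidneys. *Stc1* (chr14:69029238-69041804) was at 2.54, 2.17, 1.32 and 4.82 CPM in Ctrl and 3.795, 3.48, 2.42 and 1.73 in KO. Its highest and lowest kidneys were both controls, Ctrl4 and Ctrl3. KO exceeded Ctrl by 0.08 on the log2 scale (SE 0.40; FDR = 0.987), and by 0.29 (SE 0.36) in the 6 kidneys, and leaving out 1 kidney moved it from -0.16 to 0.52. An antisense gene, *Gm41192*, overlaps *Stc1*, and strand use is not given in the sources used here.

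*Stc2* (chr11:31357307-31370074) was steadier, at 6.50, 6.13, 7.40 and 6.57 CPM in Ctrl and 7.24, 6.42, 5.52 and 5.20 in KO. KO3 and KO4 were the lowest of the 8. The log2 fold change was -0.12 (SE 0.15; FDR = 0.932), and it was -0.04 (SE 0.20) in the 6 kidneys. In TPM the sign turned, with 1.82 ± 0.291 in Ctrl and 2.03 ± 0.287 in KO (SD, n = 4). KO4 had the fewest *Stc2* reads (54) but a TPM of 2.16, because RSEM gave it a length of 2597 bases where the controls had 3940 to 3942.

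*Igf1*, the ligand (chr10:87858265-87937042), was at 12.9, 12.4, 26.1 and 20.05 CPM in Ctrl and 25.6, 20.9, 13.4 and 22.5 in KO. The low kidneys were Ctrl1, Ctrl2 and KO3, and the highest was Ctrl3, so groups overlapped across nearly their whole range. This gave a log2 fold change of 0.20 (SE 0.27; FDR = 0.937). Without Ctrl3 and Ctrl4 it was 0.71 (SE 0.24; unadjusted p = 0.0156, FDR = 0.347), where 11.1% of all genes had an unadjusted p under 0.05. Summed adipocyte markers moved in part with it. They were at 22.3, 29.9, 216 and 63.8 CPM in Ctrl and 203, 162, 185 and 252 in KO, lowest in Ctrl1 and Ctrl2. Summed stromal markers were at 96.1, 112, 137 and 219 CPM in Ctrl and 305, 195, 120 and 195 in KO. The stromal sum was lowest in Ctrl1, Ctrl2 and KO3, the low kidneys for *Igf1*. Of 6 adipocyte genes 5 were tested, with a median log2 fold change of 1.48, and none of the 6 was at 0 in every kidney. At an edgeR unadjusted p under 0.05 there was 1 of 5, beside 6.36% of all genes tested. At an FDR under 0.05 there were 0, beside 0% of all genes. All 3 stromal genes were tested, 0 were called, and their median log2 fold change was 0.69. The part of either list in the *Igf1* values was not tested.

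*Igf1* also showed how far TPM can depart from reads in a gene with many transcripts. Ctrl1 and Ctrl2 held 127 and 126 reads but had 5.31 and 2.27 TPM, since RSEM gave them lengths of 2427 and 5449 bases among 8 transcripts of 510 to 7052 bases. Over all kidneys the length was 3892 ± 1270 bases in Ctrl and 3973 ± 1039 in KO (SD, n = 4). The spread within a group was thus far wider than the difference of 80.6 bases between groups (exact permutation p = 0.943). The antisense gene *Igf1os* overlaps the start of *Igf1*.

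*Igf1r*, the receptor tyrosine kinase for IGF-I (chr7:67952827-68233668), was at 113, 122, 86.7 and 79.6 CPM in Ctrl and 105, 130, 128 and 108 in KO. The pair of low values were Ctrl3 and Ctrl4, the kidneys with no Y-linked reads, and the other 6 kidneys lay together at 105 to 130. Its log2 fold change was 0.23 (SE 0.15; FDR = 0.844) over all kidneys and 0.01 (SE 0.12; FDR = 0.972) without that pair. KO4 had a shorter length (7784 bases) than the other 3 KO kidneys (10738 to 11375), and with it the highest TPM, 14.1.

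The binding proteins differed in level and in pattern. *Igfbp1* (chr11:7197782-7202546), whose upstream stretch is printed above, was at 11.98, 20.5, 16.2 and 12.96 CPM in Ctrl and 10.7, 4.64, 9.20 and 13.95 in KO. KO1, KO2 and KO3 were below every control, KO2 by the most, and KO4 exceeded Ctrl1 and Ctrl4. KO against Ctrl gave -0.68 on the log2 scale (SE 0.30; edgeR unadjusted p = 0.0463, FDR = 0.775), and -0.75 (SE 0.37; unadjusted p = 0.0739) without Ctrl3 and Ctrl4. Leaving out 1 kidney gave -0.92 to -0.45.

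*Igfbp3* (chr11:7206086-7213923), the main carrier of IGFs in plasma and a neighbor of *Igfbp1* on the opposite strand, was at 182, 204, 221 and 360 CPM in Ctrl and 227, 178, 170 and 168 in KO. The control mean rested on Ctrl4, the highest of the 8, and KO1 stood above the other KO kidneys. This gave a log2 fold change of -0.38 (SE 0.21; FDR = 0.806), and it was -0.04 (SE 0.14; FDR = 0.930) without Ctrl3 and Ctrl4. Leaving out Ctrl4 alone gave -0.12, and leaving out Ctrl3 alone -0.42. Summed endothelial markers were likewise highest in Ctrl4 (222 CPM) among controls and in KO1 (204) among KO kidneys. Their group ranges were 145 to 222 and 143 to 204, with 0 of 4 called and none at 0. This was not particular to endothelium. Ctrl4 and KO1 were also highest in their groups for podocyte (247 and 221), stromal (219 and 305) and juxtaglomerular markers (54.5 and 47.5). The same held for adrenal cortex markers, at low levels (3.50 and 2.56). The part of any of these lists in the *Igfbp3* values was not tested.

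*Igfbp4* and *Igfbp5*, the binding proteins cut by PAPP-A, were abundant and close between genotypes. *Igfbp4* (chr11:99041244-99054392) was at 614, 668, 455 and 467 CPM in Ctrl and 517, 534, 574 and 658 in KO. The lowest 2 kidneys were Ctrl3 and Ctrl4, and the sign turned without them, from 0.05 (SE 0.15; FDR = 0.973) to -0.16 (SE 0.12; FDR = 0.654) on the log2 scale. *Igfbp5* (chr1:72857932-72874884), which both pappalysins cut, was at 377, 377, 503 and 437 CPM in Ctrl and 396, 344, 343 and 397 in KO. Here Ctrl3 and Ctrl4 were the highest 2 of the 8. The log2 fold change was -0.19 (SE 0.12; FDR = 0.833), and -0.02 (SE 0.10; FDR = 0.963) without that pair. In the 6 kidneys with Y-linked reads, *Igf1r*, *Igfbp3*, *Igfbp4* and *Igfbp5* thus each lay within 0.16 of 0 on the log2 scale.

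**Figure D3:**
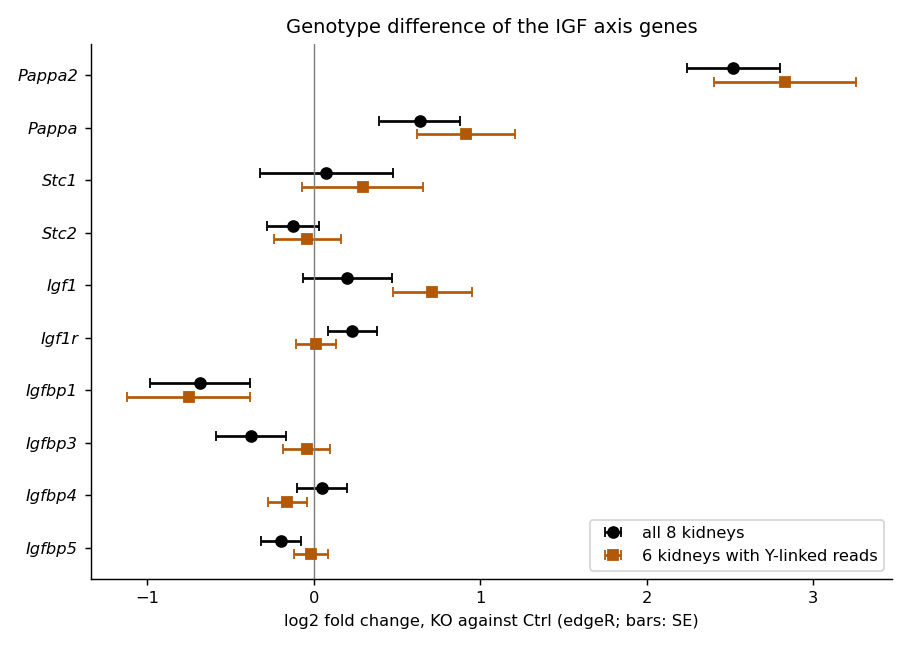
Log2 fold change of KO against Ctrl for the 10 genes from edgeR's fit over all genes, with all 8 kidneys (black circles) and with the 6 kidneys that hold Y-linked reads (orange squares); bars are 1 standard error and 0 means no difference. *Pappa2* lies at 2.52 and 2.83, *Igf1* moves from 0.20 to 0.71, and *Igfbp3* from -0.38 to -0.04.

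In levels per length the 10 genes spanned over 3 orders of magnitude on the TPM scale. *Igfbp4* led with a mean of 252 TPM over 8 kidneys (range 212 to 288) and did not overlap the next, *Igfbp3* (103, range 75.7 to 180). *Igfbp3* and *Igfbp5* (72.2, range 59.3 to 95.2) overlapped, and a gap followed. *Igf1r* (11.4, range 8.38 to 14.1), *Igfbp1* (9.88, range 4.04 to 14.99), and *Igf1* (6.01, range 2.27 to 10.9) each overlapped the next in order, down to *Stc2* (1.92, range 1.57 to 2.33). *Stc2* stood clear of *Stc1* (0.744, range 0.36 to 1.32), which overlapped *Pappa* (0.473, range 0.22 to 0.76), and *Pappa* overlapped *Pappa2* (0.190, range 0.03 to 0.43). The inhibitor *Stc2* thus had a higher TPM than either protease in every kidney, and in KO *Pappa2* was at 0.340 ± 0.0606 TPM beside 0.593 ± 0.170 for *Pappa*, where in Ctrl it was at 0.0400 ± 0.0115 beside 0.353 ± 0.118 (SD, n = 4). The KO values of *Pappa2* on this scale carry the short lengths described above, and in CPM, which is not per length, the KO means were 2.20 and 5.80.

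**Figure D4:**
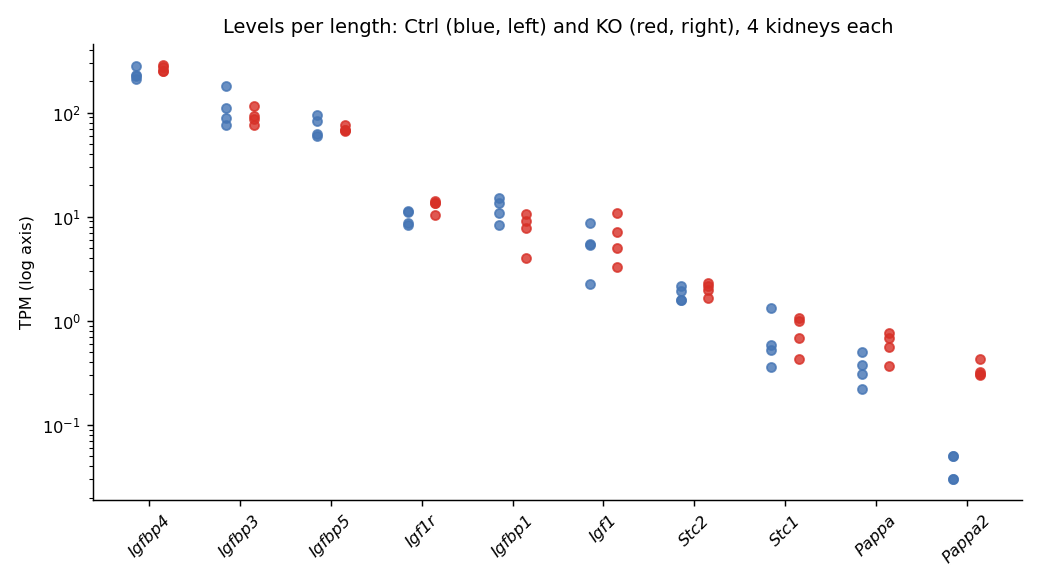
TPM of the 10 genes on a log axis, ordered by the mean over 8 kidneys, with 4 Ctrl (blue, left) and 4 KO kidneys (red, right) per gene. The binding proteins *Igfbp4*, *Igfbp3* and *Igfbp5* lie between 59.3 and 288 TPM and *Pappa2* is last, at 0.03 to 0.05 in Ctrl and 0.30 to 0.43 in KO.

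Transcript use was read from the RSEM length in the 6 genes with a mean of at least 50 reads and more than 1 length, and none passed the test for genotype. Two-sided exact permutation p-values ran from 0.286 (*Stc2*) to 1.0, all 1.0 after Benjamini-Hochberg adjustment over 6 tests. *Igfbp3* and *Igfbp5* have 2 transcripts each, so the share of the shorter one follows from the length. It was 1.74% to 2.78% of *Igfbp3* transcripts and 0% to 0.637% of *Igfbp5* transcripts, with the lowest and highest values spread over both groups. *Igfbp4* had 2475 to 2646 bases in Ctrl and 2440 to 2659 in KO.

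Of 25 other genes of the IGF and growth hormone pathway, 23 passed the filter on low counts, and *Prg2* (a PAPP-A inhibitor of placenta and eosinophils) and *Irs4* held at most 1 read. At an FDR under 0.05 edgeR called 0 of 23. At an unadjusted p under 0.05 there were 1 higher and 6 lower, beside 2.76% and 3.59% of all genes. In the 6 kidneys 6 of the list had such a p, beside 11.1% of all genes, and leaving out 1 kidney gave 5 to 9. Groups did not overlap in 3 of 23 (1 higher, 2 lower), beside 1.65% and 2.39% of all genes. The median log2 fold change was -0.0091, beside -0.0038 over all genes.

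Among carriers, *Igfals*, the acid-labile subunit that joins IGF and IGFBP-3 in a large plasma complex, was at 17.7, 23.8, 39.7 and 56.5 CPM in Ctrl and 14.5, 11.9, 11.6 and 13.9 in KO. Every KO kidney lay below every control, and the controls were more spread than the KO kidneys (SD 17.4 against 1.42). The log2 fold change was -1.41 (SE 0.32; edgeR unadjusted p = 0.00146, FDR = 0.414). DESeq2 gave -1.40 with an FDR of 0.00496, and over all alternatives FDR ran from that value to 0.973. Without Ctrl3 and Ctrl4, the highest 2, the edgeR value was -0.67 (SE 0.16; unadjusted p = 0.00287, FDR = 0.225).

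*Igf2*, the second IGF ligand, was at 0.406, 2.67, 32.0 and 25.5 CPM in Ctrl and 2.03, 1.52, 1.16 and 2.21 in KO. It was high in Ctrl3 and Ctrl4 alone, the kidneys with no Y-linked reads, and the other 6 overlapped. The log2 fold change of -3.13 (SE 1.0; unadjusted p = 0.0115, FDR = 0.678) became 0.17 (SE 0.61; FDR = 0.932) without them.

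Among receptors and signaling genes, *Insrr*, the insulin receptor-related receptor that senses alkali in the kidney, was at 37.5, 37.0, 43.1 and 46.4 CPM in Ctrl and 31.9, 28.7, 28.3 and 32.1 in KO. The groups did not overlap. Its log2 fold change was -0.44 (SE 0.10; edgeR unadjusted p = 0.00144, FDR = 0.414), and -0.29 (SE 0.10; unadjusted p = 0.0186) in the 6 kidneys. *Grb10*, an adapter that dampens insulin and IGF receptor signaling, was the one gene of the list with higher values in KO at that p: 30.5, 28.1, 28.7 and 30.5 CPM in Ctrl against 38.4, 36.1, 34.6 and 34.0 (log2 fold change 0.28, SE 0.08; unadjusted p = 0.00509, FDR = 0.514). In the 6 kidneys it was 0.30 (SE 0.10; edgeR unadjusted p = 0.0178). *Irs2*, an insulin receptor substrate, was at 21.01, 42.4, 23.4 and 35.4 against 19.2, 22.5, 17.7 and 18.95 CPM (-0.64, SE 0.21; unadjusted p = 0.0137, FDR = 0.702), and its groups overlapped. Its value in the 6 kidneys was -0.69 (SE 0.24; edgeR unadjusted p = 0.0197).

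The growth hormone arm, whose STAT5 targets *Socs2* and *Cish* feed back on the receptor, varied widely among controls. *Cish* was at 12.9, 86.8, 59.97 and 82.6 CPM in Ctrl and 31.0, 34.3, 12.98 and 13.6 in KO, and *Socs2* at 12.1, 55.0, 46.3 and 59.97 in Ctrl and 39.3, 14.4, 8.72 and 11.1 in KO. Ctrl1 was low for both genes, below every KO kidney for *Cish* and within the KO range for *Socs2*, and the other 3 controls were above every KO kidney. The log2 fold changes were -1.40 (SE 0.53; unadjusted p = 0.0268, FDR = 0.731) for *Cish* and -1.24 (SE 0.55; unadjusted p = 0.04997, FDR = 0.781) for *Socs2*. Without Ctrl3 and Ctrl4 they were -1.11 (edgeR unadjusted p = 0.118) and -0.86 (unadjusted p = 0.230), and neither was under 0.05. Leaving out KO1, the highest KO kidney for *Socs2*, moved that gene to -1.93.

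**Figure D5:**
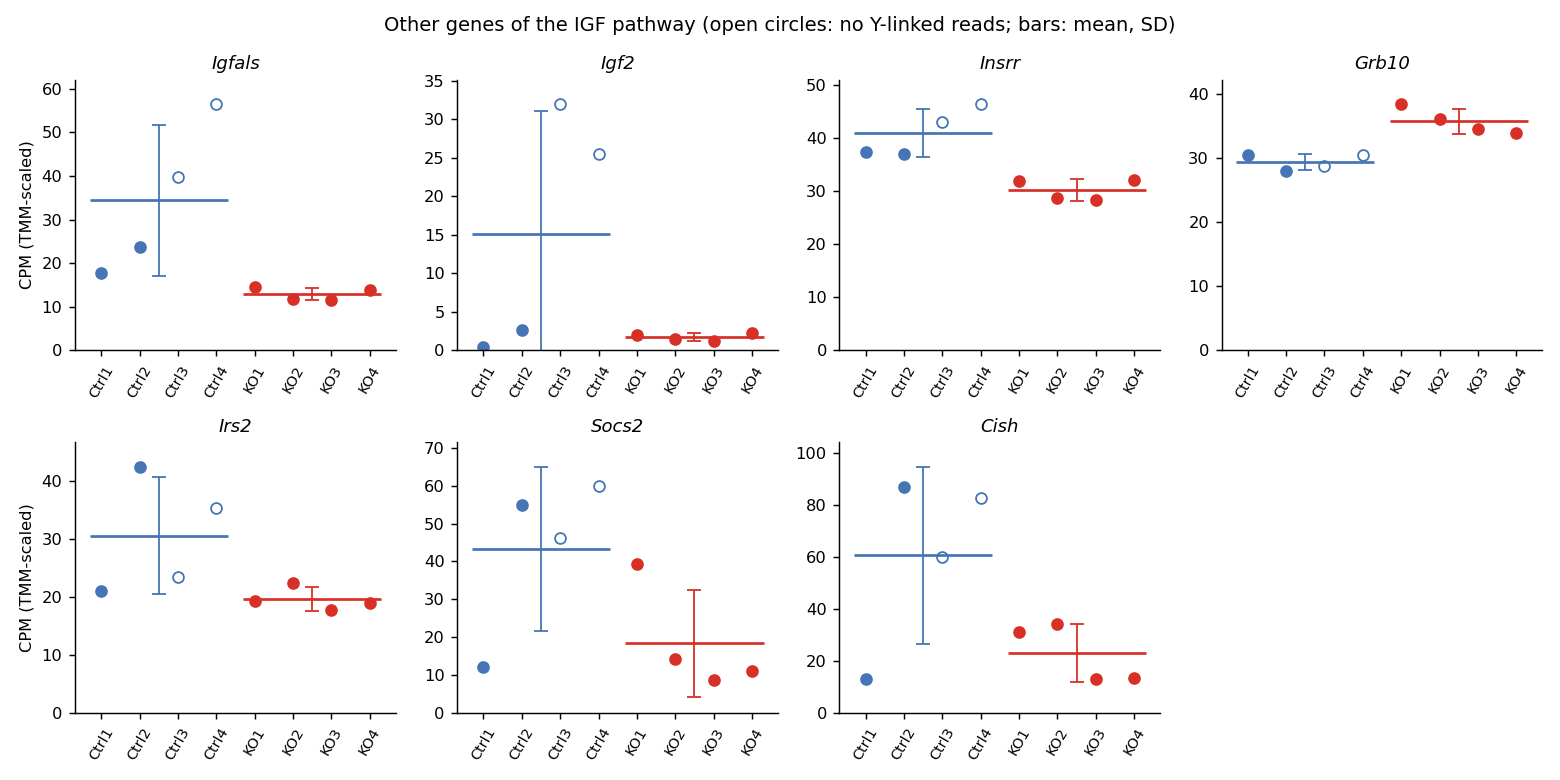
Level in every kidney, in TMM-scaled CPM from 0, of the 7 other pathway genes with an unadjusted edgeR p under 0.05 (Ctrl blue, KO red; open circles are Ctrl3 and Ctrl4; lines are means and bars the SD, n = 4; the *Igf2* control bar runs below the axis). Groups separate for *Igfals*, *Insrr* and *Grb10*, while *Igf2* is high in Ctrl3 (32.0) and Ctrl4 (25.5) only.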

How the data were processed

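Per the labels, RNA of 8 whole mouse kidneys was sequenced. The deposited files hold RSEM expected counts and TPM per gene, made by the authors per their processing notes with STAR 2.7.2b and RSEM 1.3.0 on mm10. Expected counts were rounded, though all member counts were whole. Gene IDs were matched to GENCODE M21. edgeR 4.0.16 (R 4.3.3; quasi-likelihood test, TMM factors, default expression filter, Benjamini-Hochberg over all genes tested) compared KO with Ctrl; a standard error is the log2 fold change divided by the root of F. DESeq2 1.42.0 and limma 3.58.1 were alternatives, and the test was checked on simulated data. Permutation tests enumerated all assignments. The floor of 3 counts equals 0.263 to 0.304 CPM. No pair of kidneys within a group was a duplicate (chi-square per degree of freedom 9.06 to 49.5 over 12 pairs), and pairs across groups were not compared. The study used littermate controls, but the labels do not tie kidneys to litters, so p-values measure the spread between these kidneys. Members and lists were chosen with earlier results of these data known. A pathway gene was named when its unadjusted p was under 0.05 or its groups did not overlap; *Prg2* and *Irs4*, the untested genes of that list, *Igfbp6* and *Cldn16* were named after their values were seen. Intervals cover counting error only.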

Additional observations from a re-analysis of the deposited data

Results flagged for a closer look

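In 47 sets of 4 kidneys, 3 kidneys stood apart from the other 3 of their group by Dixon's test at the 95% level, where chance gives about 1 in 20. *Igfbp3* in KO1 was at 227 CPM, while the other KO kidneys lay between 168 and 178. The *Stc2* gene length was 3941.67 bases in Ctrl3 and 3940 in the other controls, and that of *Igfbp5* was 5995 bases in KO4 and 6006 in the other KO kidneys; both are steps of a few bases from a single value shared by the other 3 kidneys.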

How the results depend on the processing

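The 0 genes called by edgeR became 9 when no filter was used, 71 by DESeq2, 2 by limma-voom, 4 by limma-trend with 1 added to TPM before the log2 and 5 with 0.1 added, 17 with the Y-linked level as covariate, 21 in the 6 kidneys with Y-linked reads and 183 there with DESeq2; leaving out 1 kidney gave 0 to 1. The pathway list had 1 call with DESeq2 (*Igfals*) and 1 with DESeq2 in the 6 kidneys (*Igfbp6*, named after its values were seen, log2 fold change 3.49, against 1.29 over all kidneys), and 0 otherwise. *Igfbp6* held few reads: 0 in Ctrl1, 5 in Ctrl2, 39 in Ctrl3 and 6 in Ctrl4, against 38, 24, 14 and 45 in KO. The *Pappa2* difference, which chose the list, was 0.36 on log2(TPM + 1), 1.65 on log2(TPM + 0.1) and 2.85 with the covariate. In the 6 kidneys it was 2.83 by edgeR and 2.88 by DESeq2. The *Pappa2* groups did not overlap, so leaving out kidneys could not turn the sign. Nothing is read from that sign over the 19 alternatives. Signs turned for *Stc2* on log2(TPM + 1) (0.11) and log2(TPM + 0.1) (0.16), *Igf1r* with the covariate (-0.0098), *Igfbp4* with the covariate (-0.17) and in the 6 kidneys (-0.16 by edgeR and -0.16 by DESeq2), and *Igf2* in the same 3 (0.29, 0.17 and 0.17), as did the *Igf1r* length in the 6 kidneys (365 bases); the cause was not tested. Leaving out 1 kidney moved *Stc1* from -0.16 to 0.52, *Igfbp4* from -0.030 to 0.16, and the lengths, in bases, of *Igf1* from -408 to 599.6, *Igf1r* from -477 to 720, *Igfbp3* from -0.599 to 1.84, *Igfbp4* from -39.8 to 34.8 and *Igfbp5* from -0.258 to 4.18. Correlations of deviations were -0.344 to 0.0632 between same-numbered kidneys of the 2 groups and -0.136 to 0.330 between different numbers. The replicate numbers thus gave no sign of pairing, which does not exclude shared litters. A fit with the replicate block called 0 genes, with 657 at an unadjusted p under 0.05. Of these, 0 were among the 9 members other than *Pappa2* (2 without the block) and 4 in the pathway list (7 without it). *Pappa2*, with at most 29 reads, dropped below the filter of a mean of 50 counts, as did *Stc1*, so that alternative gives no value for either.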
